A study of Mus musculus with 8 samples.

Results

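The metabotropic glutamate receptor genes Grm2, Grm3, Grm4, Grm5, Grm6, Grm7 and Grm8 were examined in RNA-seq libraries of whole mouse brains. They were chosen by symbol, which found 7 of 24343 genes and 9 of 34535 transcripts in the deposited table. The table covers 3 C57BL/6NCrl mice of 56 to 62 days, sequenced as 3 libraries each for mice 1 and 2 and 2 libraries for mouse 3. The labels name no treatment or genotype that differs between the mice and do not give their sex, so the comparisons below are between genes, transcripts and animals. What separates the libraries of a mouse is not stated, and p-values measure the spread between these libraries, which may be technical. The values are FPKM (fragments per kilobase of transcript, scaled by the mapped fragments of the library). They are per length, which allows an approximate comparison between genes. Differences between the mice still changed when a trend with transcript length was removed, as given below.

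Metabotropic glutamate receptors are class C G-protein-coupled receptors that sense synaptic glutamate through a large extracellular domain. Group I receptors, which include the product of Grm5, couple to Gq and phospholipase C and sit mainly around the postsynaptic density. Group II (Grm2, Grm3) and group III (Grm4, Grm6, Grm7, Grm8) receptors couple to Gi/o and lower cyclic AMP. Most of the latter restrain transmitter release from axon terminals, whereas the Grm6 product works on the dendrites of retinal ON bipolar cells. The other group I gene was not analysed here.

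Grm5 and Grm4 are the members listed with more than 1 transcript, and the sequences that separate those transcripts are shown here because the transcript levels below turn on them. Sequences are from the GENCODE transcripts of GRCm38 that correspond to the deposited RefSeq identifiers, with coordinates counted from 1. NM_001143834 of Grm5 holds a coding cassette exon of 96 bases, or 32 codons, at chr7:88116193-88116288 on the plus strand, which NM_001081414 lacks. The exon is in capitals between 20 bases of the neighbouring exons on each side, and the second line joins those neighbours as in the transcript without it. The form with the insert is known as mGlu5b and the form without it as mGlu5a.
Grm5 with the exon: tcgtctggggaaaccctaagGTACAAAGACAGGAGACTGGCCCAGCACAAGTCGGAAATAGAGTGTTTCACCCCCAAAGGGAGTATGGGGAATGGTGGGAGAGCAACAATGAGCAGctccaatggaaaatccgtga
Grm5 without the exon: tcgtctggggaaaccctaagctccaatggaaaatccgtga

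The transcripts of Grm4 differ in the end of the coding sequence, on the minus strand of chromosome 17. NM_001291045 ends its coding sequence in 247 bases at chr17:27431332-27431578 followed by 47 bases at chr17:27426787-27426833. NM_001013385 ends it instead in 54 bases at chr17:27422728-27422781. No part is in capitals because the whole of each stretch is particular to its transcript.
Grm4 NM_001291045, first stretch: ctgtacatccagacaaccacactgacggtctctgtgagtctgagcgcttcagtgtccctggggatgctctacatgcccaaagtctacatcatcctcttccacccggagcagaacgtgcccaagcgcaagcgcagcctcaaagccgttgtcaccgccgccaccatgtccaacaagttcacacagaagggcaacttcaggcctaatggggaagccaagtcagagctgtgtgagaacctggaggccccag
Grm4 NM_001291045, second stretch: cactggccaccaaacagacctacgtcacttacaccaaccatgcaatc
Grm4 NM_001013385: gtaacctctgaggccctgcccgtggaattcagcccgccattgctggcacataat

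Sequence aligned to transcripts came to between 1.31 and 2.02 gigabases per library, estimated from deposited coverage and transcript length, and between 12728 and 13006 genes reached 1 FPKM. The total of all FPKM ranged from 295541 to 345572 in mice 1 and 2 and was 384885 and 409889 in the libraries of mouse 3. Mouse 3 also stood apart in marker genes of brain cell types: all 6 astrocyte markers and 3 of 5 oligodendrocyte markers were higher there, and 4 of 5 neuron markers were lower, by limma's moderated F-test across the mice with Benjamini-Hochberg adjustment. Over all genes tested, 14.1% passed and were higher in mouse 3, and 11.3% passed and were lower. After scaling each library to the same total, 2 of the astrocyte and 2 of the oligodendrocyte markers passed and were higher. All 5 of the neuron markers then passed and were lower. Over all genes, 6.21% then passed and were higher, and 37.3% passed and were lower. In these bulk samples, fewer cells of a type and less RNA per cell cannot be told apart.

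Grm3, Grm4 and Grm5 were the most abundant members, each near 20 FPKM, and Grm7, Grm2 and Grm8 followed at lower levels. Grm6 was at or near 0. Each of the 6 detected members had a higher mean than most of all genes listed. Of 24343 genes, 2929 had a higher mean than Grm3, and 9044 had a higher mean than Grm8. Against the 13001 genes tested below, Grm3, Grm4, Grm5 and Grm7 lay above the median of 8.81 FPKM, and Grm2 and Grm8 below it. Of these tested genes, 44.5% had a lower mean than Grm2 and 30.4% a lower mean than Grm8.

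Grm3, a group II receptor found on neurons and on glia, had 22.97 ± 2.50 FPKM (SD, n = 3 mice). Its libraries read 21.3, 20.8 and 21.8 FPKM in mouse 1, 21.0, 22.7 and 21.5 in mouse 2, and 27.9 and 23.8 in mouse 3. Both libraries of mouse 3 were above the other 6, and the first of them was the highest value of any member.

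Grm4, a presynaptic group III receptor known for its place on the parallel fibres of cerebellar granule cells, had 22.2 ± 1.47 FPKM (SD, n = 3 mice). The libraries of mouse 1 read 22.9, 23.5 and 23.3 FPKM, those of mouse 2 read 20.2, 24.0 and 24.2, and those of mouse 3 read 22.1 and 19.0. The mice overlapped, and this was the member with the smallest spread relative to its mean, at 6.60% over the mouse means.

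Grm5, the group I receptor of this set, had 19.2 ± 3.81 FPKM (SD, n = 3 mice). It read 21.2, 20.8 and 21.4 FPKM in mouse 1, 23.9, 19.4 and 21.9 in mouse 2, and 15.4 and 14.3 in mouse 3. Both libraries of mouse 3 were below the other 6, with a gap of several FPKM.

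Grm7, a group III receptor of the presynaptic active zone with low affinity for glutamate, had 11.3 ± 1.01 FPKM (SD, n = 3 mice). Its libraries read 11.7, 12.0 and 12.2 FPKM in mouse 1, 11.4, 11.8 and 12.0 in mouse 2, and 10.7 and 9.52 in mouse 3. Mice 1 and 2 were within 1 FPKM of each other in every library, and both libraries of mouse 3 were lower.

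Grm2, a group II receptor mostly found on axons and terminals, had 7.40 ± 1.50 FPKM (SD, n = 3 mice). It read 8.34, 8.10 and 9.85 FPKM in mouse 1, 6.48, 7.89 and 8.57 in mouse 2, and 6.62 and 4.97 in mouse 3. The highest library was 1.98 times the lowest, the widest range among the 6 detected members, and the first library of mouse 2 lay below the first of mouse 3.

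Grm8, a presynaptic group III receptor, had 4.69 ± 0.625 FPKM (SD, n = 3 mice). Its libraries read 5.25, 5.45 and 4.61 FPKM in mouse 1, 5.35, 5.23 and 4.41 in mouse 2, and 4.28 and 3.66 in mouse 3. Those of mouse 3 were the lowest, although close to the third library of mouse 2.

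Grm6, whose product passes the light signal to ON bipolar cells, was listed at 0 in 7 libraries and at 0.0168 FPKM in the second library of mouse 3, with deposited bounds of 0 and 0.0505. Its lower bound was 0 in every library. The files give no read counts, so no limit of detection can be set for it.

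**Figure D1:**
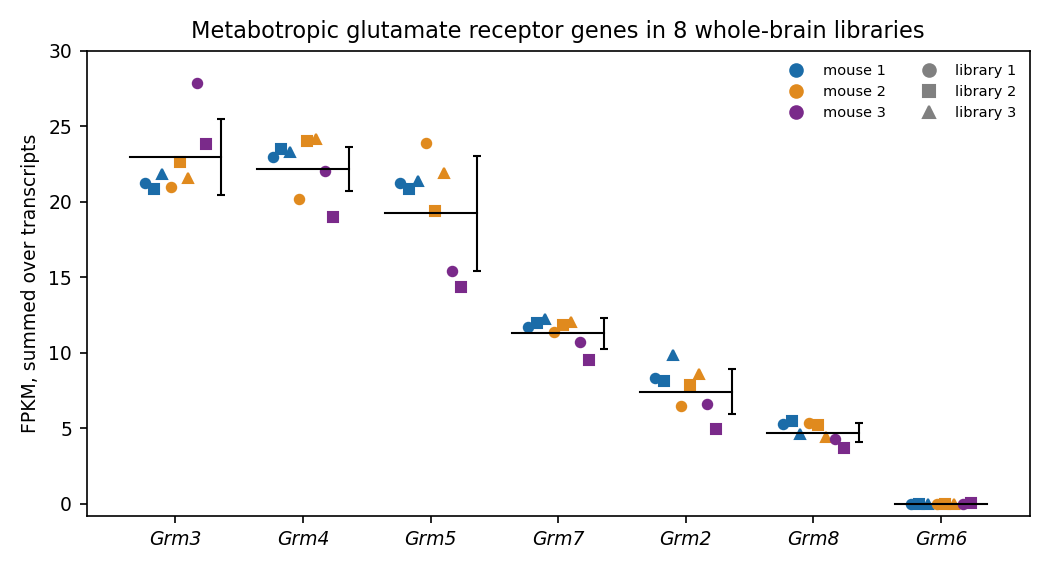
FPKM of each member, summed over its transcripts, in each of the 8 libraries. Colour gives the mouse and marker shape the library number; the horizontal line is the mean of the 3 mouse means and the bar beside it their SD (not drawn for Grm6). Grm3 and Grm5 are separated between mouse 3 and the other mice, in opposite directions, and Grm6 lies at 0.

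Not every step in this order was larger than the spread. Grm3 exceeded Grm4 in 3 of 8 libraries and in 1 of 3 mice, so that these genes did not differ beyond their spread. Grm4 exceeded Grm5 in 7 of 8 libraries and in 3 of 3 mice, but the ranges of both overlapped. Grm5 was 1.71 times Grm7, with no overlap between libraries. Grm7 was 1.52 times Grm2 and Grm2 was 1.58 times Grm8; each was higher in 8 of 8 libraries and the mouse means did not overlap, although single libraries did.

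**Figure D2:**
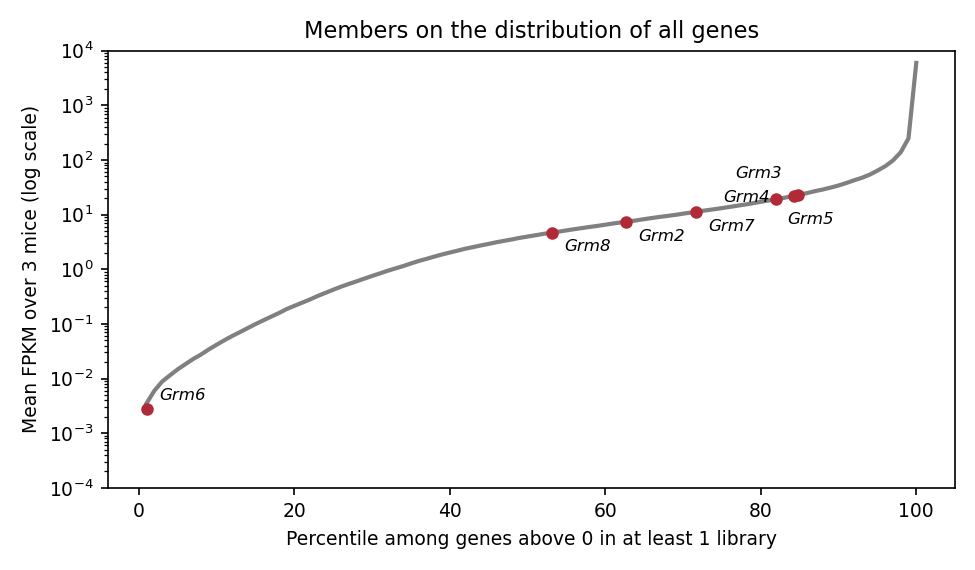
Mean FPKM over the 3 mice on a log scale against percentile, over genes with a mean above 0 (grey line), with the 7 members as points. Grm3, Grm4 and Grm5 lie close together on the upper part of the curve, Grm8 is near its middle, and Grm6 is at its lower end at 0.00280 FPKM.

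By receptor group, the group III genes held 43.4% ± 0.704 of the 7-gene FPKM sum, the group II genes 34.7% ± 3.67 and Grm5 21.8% ± 3.03 (SD, n = 3 mice). The sum itself was 87.8 ± 5.78 FPKM. The group III share was similar in every mouse, at 44.1%, 43.6% and 42.7%. The group II share was 32.8% and 32.4% in mice 1 and 2 and 39.0% in mouse 3, while that of Grm5 was 23.1%, 24.0% and 18.4%. In FPKM the mouse means of the group II sum were close, at 30.1, 29.4 and 31.6, with Grm2 lower and Grm3 higher in mouse 3. Single libraries ranged from 27.5 to 34.5 FPKM, the highest being the first library of mouse 3.

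Grm5 RNA was mostly of the form with the cassette exon. NM_001143834 held 87.9% ± 0.395 of the gene's FPKM (SD, n = 3 mice). The mouse means were much closer than the libraries within a mouse. The form without the exon, NM_001081414, held 15.4%, 14.3% and 7.23% in mouse 1, 17.2%, 5.97% and 11.7% in mouse 2, and 2.01% and 22.6% in mouse 3. The lowest and the highest shares were therefore both from mouse 3, and its mean rests on 2 libraries that differ widely.

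The same was seen in FPKM with the deposited confidence bounds. NM_001081414 read 0.310 FPKM (bounds 0.160 to 0.459) in the first library of mouse 3 and 3.24 FPKM (bounds 2.77 to 3.70) in the second. Of the 28 pairs of libraries, 19 had bounds of this transcript that did not overlap. NM_001143834 ranged from 17.8 to 19.8 FPKM in mice 1 and 2 and read 15.1 and 11.1 in mouse 3, with 13 of 28 pairs apart. The reads of the gene were divided between its transcripts by the authors' program, and the transcripts differ by 96 of 8524 bases, so that a share rests on little sequence.

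**Figure D3:**
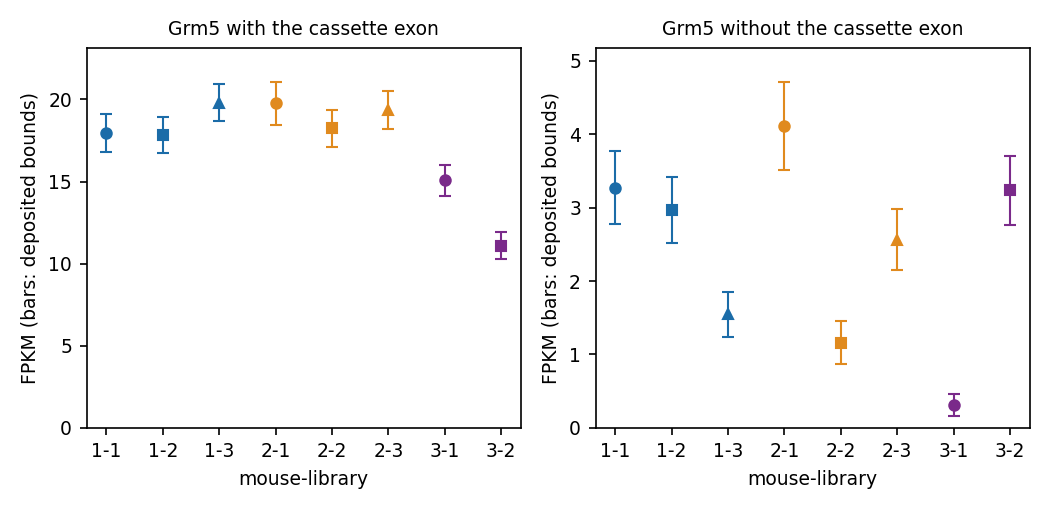
FPKM of the Grm5 transcripts with the cassette exon (left) and without it (right) in each library, labelled mouse-library, with the deposited lower and upper confidence bounds as bars. The axes start at 0 and differ in scale. The form with the exon is lowest in both libraries of mouse 3, at 15.1 and 11.1 FPKM, while the form without it spans 0.310 to 4.11 FPKM with no separation between mice.

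Grm4 RNA was assigned almost wholly to NM_001291045, which held 99.9% ± 0.120 of the gene's FPKM (SD, n = 3 mice) and at least 99.3% in every library. NM_001013385 reached 0.0975 FPKM in the second library of mouse 1 and 0.173 in the third of mouse 2, and was near 0 in the other 6. NM_001291045 has a coding length of 2736 bases in 10 coding exons, and NM_001013385 has 2496 bases in 9. Grm2, Grm3, Grm6, Grm7 and Grm8 had 1 transcript each in the table.

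The members differ greatly in the genomic length they cover. Grm7 spans 922 kb on chromosome 6 and Grm8 859 kb on the same chromosome, and only 55 and 71 of 24343 genes are longer. Grm5 on chromosome 7 spans 551 kb, Grm3 on chromosome 5 spans 240 kb and Grm4 on chromosome 17 spans 81.1 kb. Grm2 on chromosome 9 covers 11.6 kb and Grm6 on chromosome 11 covers 15.5 kb, against a median of 14.2 kb over all genes. The coding lengths are much more alike, from 2496 bases in the scarce Grm4 transcript NM_001013385 to 3609 bases in NM_001143834 of Grm5. The main Grm4 transcript, NM_001291045, has 2736. The microRNA gene Mir592 lies within Grm8.

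The next question was which members differed between the animals beyond the spread of their libraries. Grm5 did, and was lower in mouse 3: 1 of the 6 members tested passed the limma F-test, against 25.5% of 13001 genes. Grm6 was below the minimum of 1 FPKM and was not tested. The adjusted p was 0.0149 for Grm5 (F-test of limma on log2(FPKM + 1), Benjamini-Hochberg over all genes). It was 0.0632 for Grm2, 0.103 for Grm3, 0.127 for Grm7, 0.128 for Grm8 and 0.397 for Grm4 in the same limma fit. The call of Grm5 was lost without the second library of mouse 3 (limma adjusted p = 0.120), although its log2 difference of mouse 3 was then still -0.45. Without that library 0.969% of all genes passed and 0 members did, 2 having an unadjusted p under 0.05. The call was also lost with the trend of each library with transcript length removed (limma adjusted p = 0.163).

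Mice 1 and 2 lay close to each other. Their mean log2(FPKM + 1) differed by 0.02 to 0.03 for Grm3, Grm4, Grm5, Grm7 and Grm8, and by 0.18 for Grm2. With mouse 3 left out, no member and 3 of 12934 genes passed limma's test at an adjusted p under 0.05, and no member had an unadjusted p under 0.05.

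Mouse 3 was therefore set against the mean of mice 1 and 2 in the same limma fit, a contrast chosen with the separate place of mouse 3 already known. Grm3 was higher in mouse 3, as were 20.4% of all genes, and Grm5, Grm2 and Grm7 were lower, as were 17.5% of all genes. The log2 difference was +0.25 (SE 0.081) for Grm3, with an adjusted p of 0.0392 by limma. It was -0.50 (SE 0.088) for Grm5, with an adjusted p of 0.00474 by limma. With the length trend removed, Grm5 was at -0.24 and did not pass (limma adjusted p = 0.0659). Grm2 differed by -0.44 (SE 0.131, limma adjusted p = 0.0292) and Grm7 by -0.21 (SE 0.073, limma adjusted p = 0.0498). Grm8 had -0.28 (SE 0.098, limma adjusted p = 0.0501) and Grm4 -0.16 (SE 0.094, limma adjusted p = 0.206), and neither passed. Leaving out each library in turn, Grm5 passed this contrast in 8 of 8 fits. Grm2 passed in 5, and not without the third library of mouse 1, the second of mouse 2 or the second of mouse 3, where it fell to -0.26. Grm3 passed in 2, without the first library of mouse 2 or the second of mouse 3, and was at 0.14 without the first of mouse 3. Grm7 passed in 2, without the first library of mouse 2 or of mouse 3, and was at -0.13 without the second of mouse 3. Both libraries of mouse 3 lay outside the range of the other 6 for 4 of the 6 members, against 48.3% of genes: above them for Grm3, as for 26.5% of genes, and below them for Grm5, Grm7 and Grm8, as for 21.7% of genes.

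The direction of Grm3 depended on the scale. The libraries of mouse 3 have larger FPKM totals, and scaling each library to the same total moved the median log2 difference of all genes from 0.02 to -0.23. Grm3 was then at -0.037, above that median but no longer above mice 1 and 2. Under the same scaling 5 of 6 members passed the F-test (43.5% of genes did), namely Grm2, Grm4, Grm5, Grm7 and Grm8, all lower in mouse 3. On either scale Grm3 was above the median of all genes and the other 5 were below it.

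**Figure D4:**
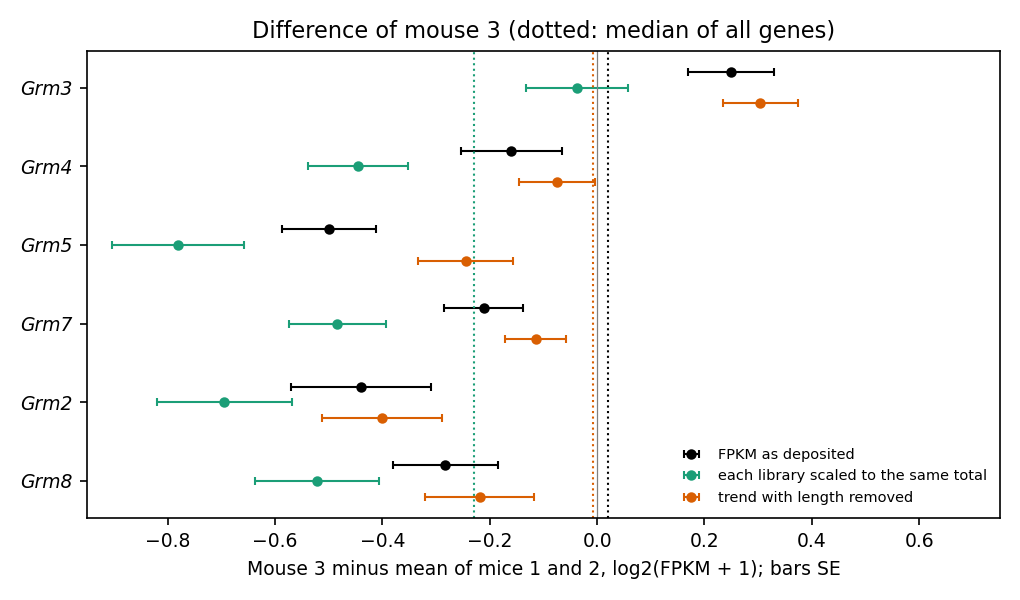
Log2 difference of mouse 3 from the mean of mice 1 and 2 for the 6 members tested, with SE as bars, in FPKM as deposited (black), after scaling each library to the same total (green) and after removing the trend with transcript length (orange). Dotted lines mark the median of all genes in each. Grm3 is at +0.25 in the deposited values and at -0.037 after scaling to the same total, and Grm5 is at -0.50 in the deposited values and at -0.24 after the length trend was removed.

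Marker sums of some cell types also differed in mouse 3, read here in the deposited FPKM. The summed FPKM of the 6 astrocyte markers was 373 and 377 in mice 1 and 2 and 573 in mouse 3. That of the 5 oligodendrocyte markers was 2092, 2129 and 4341, and that of the 5 neuron markers was 1638, 1563 and 1328. Single genes, named after their values were seen, carried much of these sums. Without Mbp the oligodendrocyte sum was 804, 807 and 1175, and without Snap25, which did not pass, the neuron sum was 526, 507 and 329. The 6 cerebellar granule cell markers summed to 232, 222 and 227. Of these markers 0 passed the limma F-test, against 25.5% of all genes, and 1 had an unadjusted p under 0.05. The part of these differences in those of the members was not tested.

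The other genes of the pathway were read from lists, none of which was tested as a set, beside the 25.5% of all genes that passed the limma F-test (14.1% higher and 11.3% lower in mouse 3). Of 11 partners in the Gq signalling that Grm5 uses, 6 passed and all 6 were lower in the deposited FPKM, with a median log2 difference of -0.31 over the list against 0.02 over all genes. With the trend with transcript length removed, 6 passed in both directions, 2 higher and 4 lower, against 10.9% and 9.37% of all genes. The differences of Plcb1 and Prkca then shrank to -0.32 and -0.24. Plcb1 and Plcb4, phospholipases that cleave PIP2, differed by -0.54 and -0.32 (limma adjusted p = 0.0116 and 0.0228), and Prkca, a protein kinase C, by -0.49 (limma adjusted p = 0.0188). Prkcb was the most abundant gene of the list at 93.5 FPKM and Plcb3 the least at 5.05, and neither passed.

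Of 16 Gi/o signalling partners, 3 passed, a share below that of all genes. With the length trend removed, 6 passed, 4 of them higher and 2 lower, against 10.9% and 9.37% of all genes. Gnao1, the Go alpha subunit and the most abundant gene of the list at 152 FPKM, differed by -0.44 (limma adjusted p = 0.0201). Gnaz, the Gz alpha subunit, differed by -0.28 (limma adjusted p = 0.0387). Gnai2, a Gi alpha subunit, differed by +0.39 (limma adjusted p = 0.0241). The other 13 did not pass, down to the adenylyl cyclase gene Adcy6 at 4.91 FPKM. The median log2 difference of the list was -0.12.

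Among 6 Homer and Shank scaffold genes, whose proteins link group I receptors to the postsynaptic density, 4 passed in both directions. Shank1, Shank3 and Homer2 were higher in mouse 3 by 0.53, 0.44 and 0.38 (limma adjusted p = 0.0192, 0.0150 and 0.0137). Homer1 was lower, at -0.47 (limma adjusted p = 0.0123). Shank1 was the most abundant at 42.8 FPKM and Homer2 the least at 6.47.

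Of 14 measured genes for receptor-binding proteins, 4 passed, a share close to that of all genes. Slc9a3r1, a PDZ scaffold gene, was higher by 0.33 (limma adjusted p = 0.0432). Grip1, a PDZ scaffold gene and the least abundant at 3.33 FPKM, and Cabp1, a calcium-binding protein gene, were lower, at -0.50 and -0.27 (limma adjusted p = 0.0127 and 0.0367). Calm2 was the most abundant at 1080 FPKM and did not pass.

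Of 7 glutamate transporter genes tested, 3 passed. The astrocyte transporters Slc1a3 and Slc1a2 were higher by 0.53 and 0.46 (limma adjusted p = 0.00816 and 0.0168), and the neuronal Slc1a1 was lower, at -0.44 (limma adjusted p = 0.0324). Slc1a3 is also one of the astrocyte markers. Slc1a2 was the most abundant at 263 FPKM, and the vesicular transporter gene Slc17a8 the least at 0.784 FPKM, under the minimum.

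Other class C receptor genes spanned a wider range of levels than the members. Gabbr1, a GABA-B receptor subunit gene, had 124 ± 2.84 FPKM (SD, n = 3 mice), above every member, whereas Gprc6a and Tas1r2 were listed at 0 in every library. Of 5 tested, 3 passed: Gabbr2, the partner subunit, and the orphan receptor gene Gpr158 were lower, at -0.55 and -0.52 (limma adjusted p = 0.0193 and 0.0161), and the orphan Gprc5b was higher at 0.35 (limma adjusted p = 0.0402).

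The genes that act with Grm6 in ON bipolar cells were mostly near 0 too, with 6 of 8 under 1 FPKM, Lrit3 lowest at 0.00950. Gnb5, which also serves neurons outside the retina, had 47.5 FPKM. Rgs11 had 3.41 FPKM and was lower in mouse 3, at -0.88 (limma adjusted p = 0.0147). Of 10 retina markers, 9 were under 1 FPKM, and the sum of all 10 was 4.27, 4.16 and 6.06 FPKM in the 3 mice. Rom1 alone held 3.01, 2.86 and 4.38 FPKM and did not pass, and the other 9 summed to 1.26, 1.30 and 1.68.

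**Figure D5:**
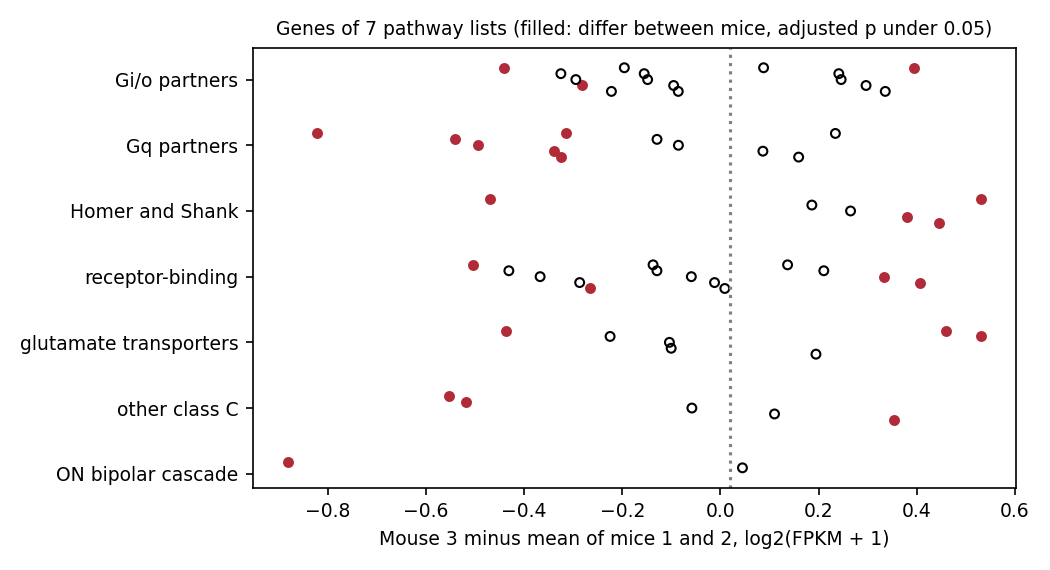
Log2 difference of mouse 3 from the mean of mice 1 and 2 for each tested gene of 7 pathway lists, with genes that passed the F-test across the mice filled in red and the rest open; the dotted line is the median of all genes, 0.02. The 6 filled genes of the Gq list all lie to the left, while those of the Homer and Shank list lie on both sides.

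These counts moved with the scale as well. After scaling to the same total, all called genes of the 7 lists were lower in mouse 3. Among them were 9 of the Gi/o list, 8 of the Gq list and 1 of the Homer and Shank list. Over all genes, 37.3% then passed and were lower and 6.21% passed and were higher, with a median log2 difference of -0.23. Without the second library of mouse 3, few genes were called, in these lists as over all genes. That mouse then had 1 library, so nothing is concluded about the lists from that fit.

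Genes whose pattern over the 8 libraries was most like that of a member were found by the root-mean-square difference of log2(FPKM + 1) after centring each gene, a description over libraries that share 3 animals. For Grm5 the closest was Grip1 (0.034), which is also a gene of the receptor-binding list, followed by Smarca5 and U2surp (both 0.043). For Grm2 they were Smg9 (0.044), Zdhhc8 and Ncdn (both 0.058), of which Ncdn encodes a neuronal protein of the receptor-binding list. Grm3 was closest to Dock1 (0.034), Wnk1 and Kif1a (both 0.036), and Grm4 to Tnpo2 (0.020), Smcr8 (0.023) and Klhdc10 (0.025). Grm7 was closest to Exoc3 (0.017), Zfyve1 (0.021) and Gucy1b3 (0.027), and Grm8 to Slc8a3 (0.050), Tex9 (0.054) and Hnrnpab (0.056). Among the members themselves Grm4 and Grm7 were the most alike pair (0.060), and Grm3 and Grm5 the least (0.340).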

How the data were processed

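The authors purified RNA from whole brains with an RNAqueous Micro kit, prepared libraries by Kapa mRNA HyperPrep and ran them on a NextSeq500. The submitters' processing notes name TopHat, Cufflinks and mm10, without versions or roles. The deposited values are FPKM per RefSeq transcript with confidence bounds, estimated by the authors, and coverage, a signal of read depth per base not scaled for library size. The deposited file marks 8 values as failed, none of a member. Depth in read counts is unknown. Every named column belonged to a mapped sample.

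Here FPKM were summed over a gene's transcripts and averaged per mouse, then over mice. Genes averaging 1 FPKM or more were tested on log2(FPKM + 1) with limma 3.58.1 in R 4.3.3 (moderated F-test across mice, Benjamini-Hochberg, threshold 0.05), which understates differences of low genes. The script was checked on simulated data. Figures used matplotlib 3.10.9. The members and lists were chosen with earlier results of these data known, and no list was tested as a set. Text names all members, each list's highest, lowest and up to 4 called genes, and each member's 3 most alike genes (own SD within 3 times, either way); some genes under this rule are not reported here. Of 17 receptor-binding symbols, 3 newer names of listed genes were not in the table. Alternatives were a pseudocount of 0.1, no minimum, other scalings, length trend removal, single transcripts, an intensity trend, a library block and leaving out libraries. A planned protein comparison was not run. Sequences were read from GENCODE transcripts of GRCm38.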

Additional observations from a re-analysis of the deposited data

Results flagged for a closer look

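In 18 measures of the members, each over 8 libraries, the library farthest from the rest was checked by Dixon's gap over range, and in 4 it exceeded the 95% critical value. Chance gives about 1 in 20 if the 8 libraries are independent, but they come from 3 mice. The measures also share libraries and are not independent of each other. Grm3 read 27.9 FPKM in the first library of mouse 3, with the next at 23.8 (0.572). Without Grm6, 3 of 17 measures exceeded it. Grm6 read 0.0168 FPKM in library 2 of mouse 3, the other 7 being at 0, and with 7 values at 0 any value above 0 exceeds the limit. The group III sum was lowest in the second library of mouse 3, at 32.2 FPKM against 36.9 in the next (0.533). The sum of the 7 genes was lowest there too, at 75.3 FPKM against 86.9 in the next (0.647). These are values of single libraries, and what set them apart was not tested.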

How the results depend on the processing

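Levels of the 7 genes moved by less than 1 SD under every alternative run for them. The group III share was 44.6% with the highest transcript only. Scaling each library to the same total called 5 members, with limma adjusted p = 0.00608 for Grm2, 0.0123 for Grm4, 0.00739 for Grm7 and 0.0156 for Grm8, and turned Grm3 to -0.037. Scaling to the same median called 2, against 29.3% of all genes, with Grm2 at a limma adjusted p of 0.0387. With the length trend removed, Grm3 passed the F-test (limma adjusted p = 0.0362) and Grm5 did not (0.163). In the contrast of mouse 3, Grm2 and Grm3 then passed (limma adjusted p = 0.0275 and 0.0132) and Grm5 did not (0.0659). Of 13001 genes, 4150 passed this contrast. With the highest transcript only, Grm2 and Grm5 were the members that passed the contrast (limma adjusted p = 0.0365 and 0.0133), as did 4185 of 12899 genes. Leaving out mouse 3, an alternative chosen after seeing the data, called 0 members.

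Leaving out each library in turn called 0 to 2 members in the F-test and 1 to 4 in the contrast, with limma adjusted p from 0.0116 to 0.120 for Grm5 and from 0.0376 to 0.330 for Grm2. Grm2 passed without the first library of mouse 2. Without either library of mouse 3, that mouse had 1 library left. Grm2 was at -0.62 without the first of them and at -0.26 without the second. Grm5 lost its call without the second, with a log2 difference of -0.45. The share of NM_001143834 ranged from 84.5% without the first library of mouse 3 to 91.4% without its second. The contrast kept its sign in 95 of 96 member and alternative combinations, and among these it lost its call in 24 and gained one in 5. In the remaining combination, Grm3 scaled to the same total, the sign turned and the call was lost too (limma adjusted p = 0.758). Grm8 gained it without the third library of mouse 2 or the first of mouse 3.

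Whether library numbers pair the samples was not settled. Deviations from the mouse mean correlated at 0.00276 to 0.107 in the 7 same-numbered pairs across mice, with 1 above 0.1. In the other pairs they correlated at -0.135 to 0.0645. The deviations of the 2 libraries of mouse 3 are opposites by construction, so its pairs add little. With the replicate block, Grm5 had a limma adjusted p of 0.0231 and remained the only member called, against 23.0% of all genes. The contrast was passed by 2 members, against 4564 of 13001 genes. They were Grm5 (limma adjusted p = 0.00797) and Grm8 (0.0207), which did not pass without the block. Grm2 (0.0622), Grm3 (0.0728) and Grm7 (0.110) no longer passed.

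The share of all genes called was 43.5% with the same total and 20.2% with the length trend removed. List counts, recomputed after seeing the data, were 9 for Gi/o, 8 for receptor-binding proteins and 1 for Homer and Shank with the same total. With the length trend removed they were 6 for Gi/o, with 4 genes higher. Without the second library of mouse 3, that mouse had 1 library and few genes were called, in the lists as over all genes. That fit therefore does not separate the lists from other genes. For the cases above the cause was not tested.

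With 3 mice of a single condition, the comparisons describe these animals, and depth in reads is not given, so Grm6 and NM_001013385 can only be called near 0.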

Other observations

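Marker lists of other cell types were also read in the 3 mice, beside the 25.5% of all genes that passed the limma F-test. The 5 microglia markers summed to 52.6, 50.6 and 61.4 FPKM, with 2 higher in mouse 3 by the limma F-test. The 5 blood markers summed to 618, 612 and 849 FPKM, with 1 called. The 5 choroid plexus markers summed to 534, 431 and 500 FPKM, with 1 called and lower in mouse 3. Single genes carried most of both sums: Hba-a1 held 432, 434 and 524 FPKM and Ttr 516, 414 and 486, and neither passed. The 5 pituitary markers summed to 2.41, 2.60 and 2.30 FPKM, with 4 of them under 1 FPKM. Their part in the members' differences was not tested.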
